A study of Homo sapiens with 28 samples.

Results

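Hyaluronan is a long glycosaminoglycan of the extracellular matrix, and the genes described here make it, break it down, bind it or sense it. The set has 9 genes, chosen by platform gene symbol: the synthases HAS1, HAS2 and HAS3, the hyaluronidases HYAL1 and HYAL2, the receptors CD44 and HMMR, and the binding proteins TNFAIP6 and VCAN. Of the 9 genes, 7 had a probe set that the platform annotation gives to 1 gene, with 27 such probe sets among the 54675 on the array, and 19775 genes had one in all. HAS1 and HYAL1 were not analysed here. The set was put together because HAS2 was lower early and CD44 higher late after MYCN induction, so the values of these genes in that line are given as a description with no test, and tests are confined to the other 5 genes and to the mock line.

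The cells were SK-N-AS, a human neuroblastoma line, in which doxycycline added to the medium switches on a MYCN transgene. The MYCN line was harvested at 7 times labelled 0, 4, 8, 24, 48, 96 and 192, with 3 arrays at each, and a mock line, labelled SKNAS-pcDNA6TR after a vector for the tetracycline repressor, was given doxycycline and harvested at the same times with 1 array at each. The labels do not state the unit of time or whether replicates were separate cultures, so p-values measure the spread between these arrays, which may be technical. DMEM containing fetal calf serum was the medium of both, and time 0 is the state before induction.

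Hyaluronan is made and extruded at the plasma membrane by the HAS synthases from the sugar nucleotides UDP-glucuronic acid and UDP-N-acetylglucosamine. HYAL2 is a membrane-anchored hyaluronidase, CD44 is the main cell surface receptor, and HMMR is both a hyaluronan-binding protein and a spindle protein of dividing cells. TNFAIP6 transfers heavy chains of inter-alpha-trypsin inhibitor onto hyaluronan, and versican, the product of VCAN, is a large proteoglycan that binds hyaluronan and forms a loose matrix around cells. In solid tumours, neuroblastoma among them, this matrix is known for its part in cell adhesion and migration.

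The promoters of 3 members are shown because these genes stand for the 3 courses described below, higher late (CD44), lower late (TNFAIP6) and no change past the test (HMMR). Each is the 250 bases before the annotated start, 5′ to 3′ on the plus strand of GRCh38.p14 from RefSeq. Windows of 8 of the 9 genes were searched, and none was used for HAS2. Capitals mark matches to 4 motifs searched on both strands: the canonical E-box CACGTG, the AP-1 element TGANTCA, the TATA box TATAAA and the cell cycle homology region TTTGAA.
CD44, chr11:35138921-35139170: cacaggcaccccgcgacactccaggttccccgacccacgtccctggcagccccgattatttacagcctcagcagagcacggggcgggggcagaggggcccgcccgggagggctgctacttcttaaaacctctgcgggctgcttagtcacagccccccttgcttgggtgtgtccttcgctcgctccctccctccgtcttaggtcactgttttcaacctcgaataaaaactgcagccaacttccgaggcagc
TNFAIP6, chr2:151357342-151357591: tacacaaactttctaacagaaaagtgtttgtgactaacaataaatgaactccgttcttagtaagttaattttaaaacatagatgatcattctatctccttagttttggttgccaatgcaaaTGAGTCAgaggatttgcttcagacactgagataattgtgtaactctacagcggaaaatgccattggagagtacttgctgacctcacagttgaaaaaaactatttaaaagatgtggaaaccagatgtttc
HMMR, chr5:163460382-163460631: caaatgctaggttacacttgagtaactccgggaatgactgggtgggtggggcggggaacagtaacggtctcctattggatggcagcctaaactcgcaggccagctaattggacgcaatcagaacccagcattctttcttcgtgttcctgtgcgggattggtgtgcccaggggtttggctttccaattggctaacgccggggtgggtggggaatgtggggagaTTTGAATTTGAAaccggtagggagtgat
The CD44 window was CpG rich, with 15 CpG dinucleotides and a GC content of 62.4%, and held none of the 4 motifs. The TNFAIP6 window had 2 CpG dinucleotides, a GC content of 34.4% and an AP-1 element from 129 to 123 bases before the start. HMMR had 10 CpG dinucleotides and 2 adjoining cell cycle homology regions, from 28 to 23 and from 22 to 17 bases before the start. Among the other members, HAS3 had an E-box from 66 to 61 bases before its start and HAS1 a TTTGAA from 30 to 25. Of 35116 RefSeq promoter windows of the same length, 6.34% held CACGTG, 6.57% TGANTCA, 10.7% TATAAA and 13.3% TTTGAA, so each of these letter strings is common. A match describes the sequence only.

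Induction was visible in the target gene on every MYCN line array after time 0. MYCN signal in the MYCN line was 69.4 to 103.4 at time 0, 1549 to 3098 at time 4 and 3065 to 3273 at time 192, whereas the mock line gave 1.6 to 3. The MYCN line thus read above mock already before induction. Signals are the authors' linear array intensities, scaled so that the trimmed mean of each array is 100.01, and a gene was tested where its mean signal reached 12.8, which 11865 genes did. All 7 mesenchymal neuroblastoma markers with a probe set had a median above that limit at time 0 in both lines (VIM, FN1, PRRX1, SNAI2, TWIST1, FOSL1 and YAP1). Of 6 noradrenergic markers 3 did in the MYCN line (HAND2, GATA3 and ISL1) and 4 in mock, where PHOX2A read 768, and the noradrenergic enzymes TH and DBH lay below it in both. Of 3 Schwann cell markers none passed in the MYCN line and ERBB3 did in mock (15), while 5 of 6 fibroblast markers passed in both. Among 11865 genes the share called in the MYCN line at an adjusted p under 0.05 (limma with Benjamini-Hochberg adjustment) went from 0.00843% and 0.767% (times 4 and 8) to 7.18% and 14.7% (times 24 and 48) and then 23.4% and 25.8% (times 96 and 192).

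HAS2 makes high-molecular-weight hyaluronan and lay above the signal limit of 12.8 on every array. Replicates 1, 2 and 3 of the MYCN line began at signals of 235, 204.8 and 185.9, time 4 gave 177.7, 168.3 and 128.4, and time 8 gave 86.3, 93.8 and 91.9. Time 24 gave 65, 49 and 63.7, time 48 gave 39, 31.5 and 62.3, time 96 gave 40.2, 20.7 and 40.2, and time 192 gave 41.3, 25.7 and 24.7. From time 4 on, each array lay under all 3 arrays of time 0, and from time 24 on each lay under all arrays of time 8, while times 48, 96 and 192 overlapped one another.

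Mean HAS2 signal started at 208.6 ± 24.8 (SD, n = 3), had come to 90.7 ± 3.9 by time 8 and ended at 30.6 ± 9.3, which is 0.143 of the starting level as the ratio of geometric means. The log2 differences from time 0 were, in order of time, -0.41, -1.20, -1.82, -2.29, -2.69 and -2.80. The other HAS2 probe set gave -0.35, -1.24, -1.93, -2.46, -2.23 and -2.36 at the same times, so both probe sets had most of the difference by time 24. The 7 mock arrays, in order of time, read 324.2, 347.2, 280.2, 332.7, 349.4, 399.1 and 384.6. Every mock array was above every MYCN line array, including those of time 0, where the MYCN line was lower by a log2 difference of -0.64.

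HAS3, a second synthase that makes shorter hyaluronan chains, lay near the signal limit of 12.8 throughout. Its time 0 signals were 12.1, 21.1 and 11.1, those of time 96 were 16, 22.7 and 14.6, and those of time 192 were 14.2, 14.7 and 1.9, so that a single array stood apart and the rest overlapped. The log2 difference at time 192 was -0.95 (SE 0.58, limma adjusted p = 0.252), and it was 0.03 without the array of replicate 3 at that time. Mock signals ran from 8.5 to 21.3. No change in HAS3 was detectable on this probe set at these low signals. Its second probe set was under the limit and was not tested. Differences there were 0.23, 0.06, -1.50, -2.40, -1.09 and -0.17 in order of time, and -0.51 to -1.17 in mock.

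**Figure D1:**
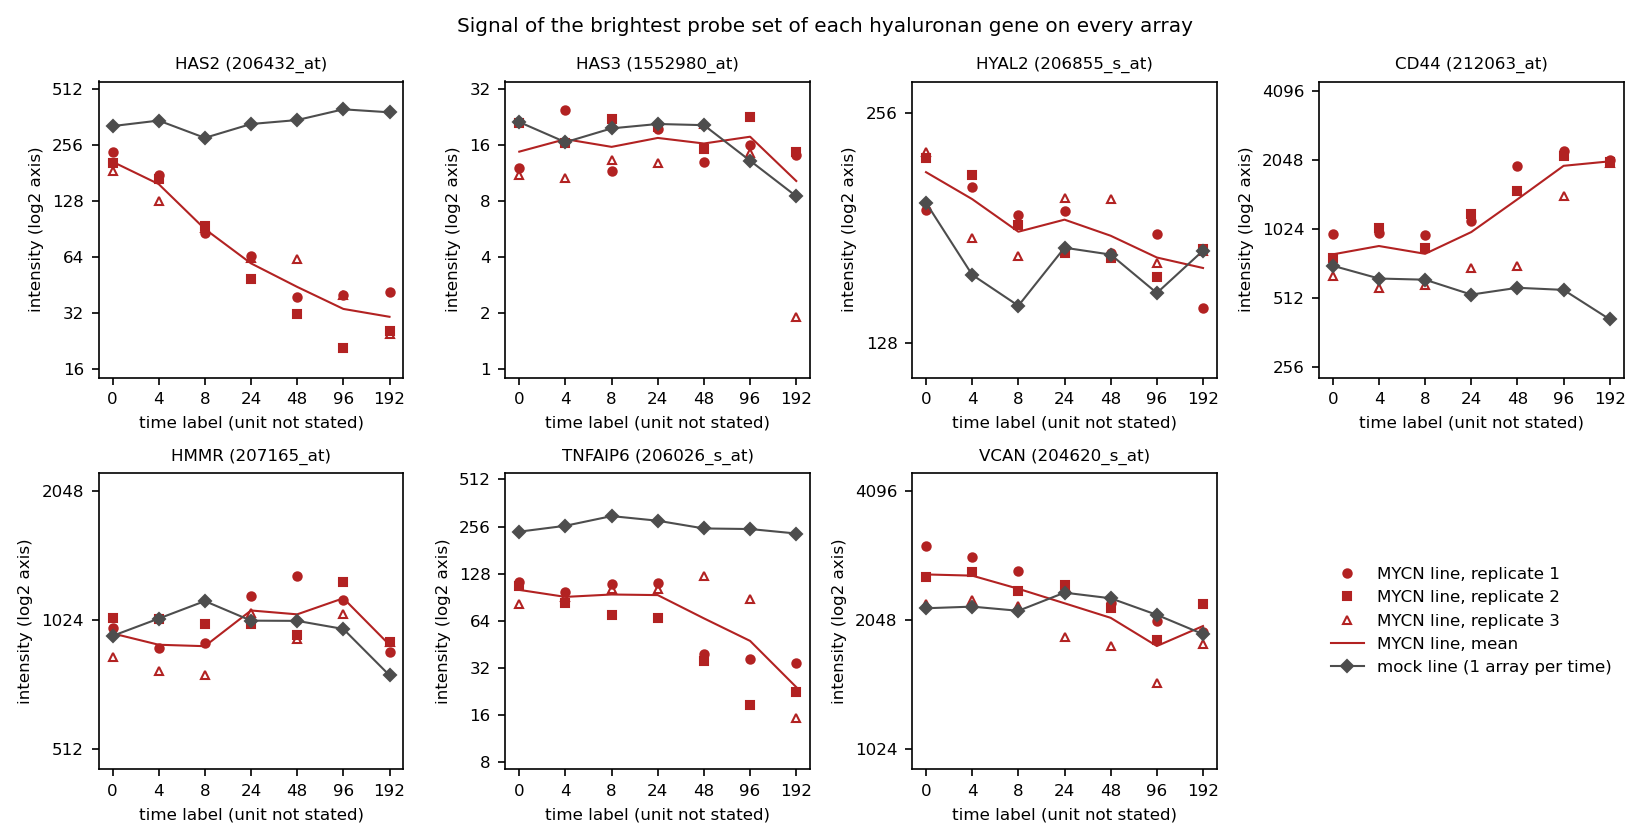
Signal of the brightest probe set of each of the 7 hyaluronan genes on every array (vertical axis, linear intensity drawn on a log2 axis) against the time label (horizontal axis, unit not stated). Red points are the 3 replicates of the MYCN line, the red line their mean, and grey diamonds the mock line with 1 array per time. HAS2 goes from 208.6 to 30.6 on average while mock stays between 280.2 and 399.1, and CD44 goes from 793.9 to 2021 while mock ends at 413.4.

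Genes that feed the synthases moved in both directions. Of 7 listed genes of precursor synthesis, 5 were tested, of which 3 rose and 1 fell at time 96 and again at time 192, against 10.3% higher and 13.2% lower among all genes tested at time 96 and 11.6% and 14.1% at time 192. The median log2 difference of the list was 0.35 at time 96 and 0.41 at time 192, against -0.03 for all genes tested at both times, and the mock line medians were -0.11 and -0.29. The 3 that rose belong to the UDP-N-acetylglucosamine branch: GFPT1 (log2 difference 0.45 at time 192, SE 0.15, limma adjusted p = 0.0287), the first and rate-limiting step of the hexosamine pathway, GNPNAT1 (0.41, SE 0.09, adjusted p = 0.00279), an acetyltransferase, and UAP1 (0.55, SE 0.15, adjusted p = 0.00909), which forms the sugar nucleotide. UGP2, which makes UDP-glucose on the way to UDP-glucuronic acid, fell from a mean of 1501 ± 139 (SD, n = 3) to 946.2 ± 102 (log2 difference -0.67, SE 0.09, adjusted p = 3e-05), and its mock signal went from 1704 to 1251. With array medians made equal the adjusted p was 0.136 for GNPNAT1 and 0.189 for GFPT1, and leaving out replicate 2 ended both calls (0.0528 and 0.24). GFPT1 also lost its call without replicate 1 (0.198), without any 1 of the time 0 arrays of replicates 2 and 3, and without the time 192 array of replicate 1 (log2 difference 0.29) or 2.

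HYAL2 cleaves large hyaluronan at the cell surface, and it fell modestly at the late times. Replicates 1, 2 and 3 began at 191.2, 223.4 and 227.9, time 4 gave 204.8, 212.1 and 175.4, time 8 gave 188.1, 182.6 and 166.1, and time 24 gave 190.4, 168 and 198.3. Time 48 gave 167.6, 165.3 and 197.4, time 96 gave 177.7, 156.2 and 162.7, and time 192 gave 142.3, 170 and 168.8. All 3 arrays at each of times 96 and 192 were below all 3 of time 0, and so were those of time 8, while times 4, 24 and 48 overlapped time 0.

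The mean of HYAL2 started at 214.2 ± 20 (SD, n = 3), and the means of times 96 and 192 were 165.5 ± 11 and 160.4 ± 15.7. The log2 difference was -0.37 at time 96 (SE 0.12, limma adjusted p = 0.027) and -0.42 at time 192 (SE 0.12, adjusted p = 0.0119), but the F-test over all 6 contrasts gave an adjusted p of 0.0924. The mock line had 195.3 at time 0 and 143.1 to 170.5 afterwards, a log2 difference of -0.20 to -0.45, and the trend per time step did not differ detectably between the lines (-0.04, SE 0.03, adjusted p = 0.326). The call at time 96 ended without replicate 2 or 3 (adjusted p = 0.307 and 0.11), without the time 0 array of replicate 2 or 3 and without the time 96 array of replicate 2 or 3. That at time 192 ended without replicate 1 or 2 (0.0949 and 0.115), without the time 0 array of replicate 3 (0.0514) and without the time 192 array of replicate 1 (0.0697), and both ended with equal array medians (0.212 and 0.131). In all, 9 and 6 of 19 settings ended them.

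Of 8 other listed genes of hyaluronan breakdown, 4 were tested, and at time 192 none rose and 2 fell (11.6% of all genes tested rose and 14.1% fell), with a list median of -0.72 against -0.03 for all genes tested and 0.09 for the list in the mock line. CEMIP2, a cell surface protein linked to hyaluronan degradation, fell from 265.6 ± 29 (SD, n = 3) to 127.9 ± 46.7 (log2 difference -1.12, SE 0.24, limma adjusted p = 0.00183) and was 173.1 and 157.7 in the mock line. GUSB, lysosomal beta-glucuronidase, fell by 0.32 on the log2 scale (SE 0.09, adjusted p = 0.00975). HYAL3 had its largest difference at time 24, -1.32 (adjusted p = 0.188), and it was -0.38 without the array of replicate 2 at that time. Leaving out replicate 2 ended the calls of CEMIP2 (adjusted p = 0.0778) and GUSB (0.174), leaving out replicate 1 ended that of GUSB (0.0668), and so did the mean of all its probe sets (log2 difference -0.12, 0.865).

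CD44 binds hyaluronan at the cell surface, links it to the cytoskeleton and acts as a coreceptor for growth factor receptors. Its brightest probe set began at 973.7, 766.1 and 641.9 in replicates 1, 2 and 3, time 4 gave 987, 1037 and 566.6, and time 8 gave 965.4, 847.2 and 583. Time 24 gave 1105, 1186 and 689.7, time 48 gave 1927, 1506 and 707.9, time 96 gave 2238, 2136 and 1422, and time 192 gave 2058, 2014 and 1991. At times 4, 8 and 24 the arrays overlapped those of time 0. At time 48 replicates 1 and 2 were above all arrays of time 0 and replicate 3 was not, and from time 96 on all were above.

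Mean CD44 signal started at 793.9 ± 168 (SD, n = 3), the means of times 48, 96 and 192 were 1380 ± 619, 1932 ± 445 and 2021 ± 34.1, and the arrays of the last 2 of these overlapped. The log2 differences from time 0 were, in order of time, 0.09, -0.00, 0.31, 0.70, 1.28 and 1.37. That of time 48 was 1.12 without the array of replicate 3 and 0.40 without that of replicate 1. TNFAIP6, described below, also set that array apart, with a log2 difference of 0.59 from its own number's time 0 array against -1.53 and -1.59 in replicates 1 and 2.

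CD44 is alternatively spliced, and 13 probe sets carry its symbol, 9 of them above the signal limit. All 9 were higher at time 192, with log2 differences of 1.37 to 1.82, and the brightest had the smallest of these. The 4 under the limit had differences of 0.09 to 1.69. The one with the largest went from 308.8 ± 104 (SD, n = 3) to 1071 ± 265 and a dim one from 29.1 ± 14.1 to 87.5 ± 23.9. No source used here ties these probe sets to exons, so they show no choice between isoforms.

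The mock line moved the other way on the brightest CD44 probe set, which read 708.4, 623, 615.7, 530.2, 567.7, 555.8 and 413.4 in order of time. CD44 fell by 0.099 per time step on the log2 scale (SE 0.023, limma adjusted p = 0.0432 over 7 mock arrays), the only one of the 7 genes called, against 3.13% of all genes tested. That call ended when any 1 mock array other than that of time 96 was left out, with slopes of -0.105 to -0.0677, and with the mean of all CD44 probe sets the slope was -0.03 (adjusted p = 0.779). On the CD44 probe set that gained most in the MYCN line, mock began at 246.9 and ended at 241.9. At time 0 the lines were close, the MYCN line being higher by 0.14 on the log2 scale.

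**Figure D2:**
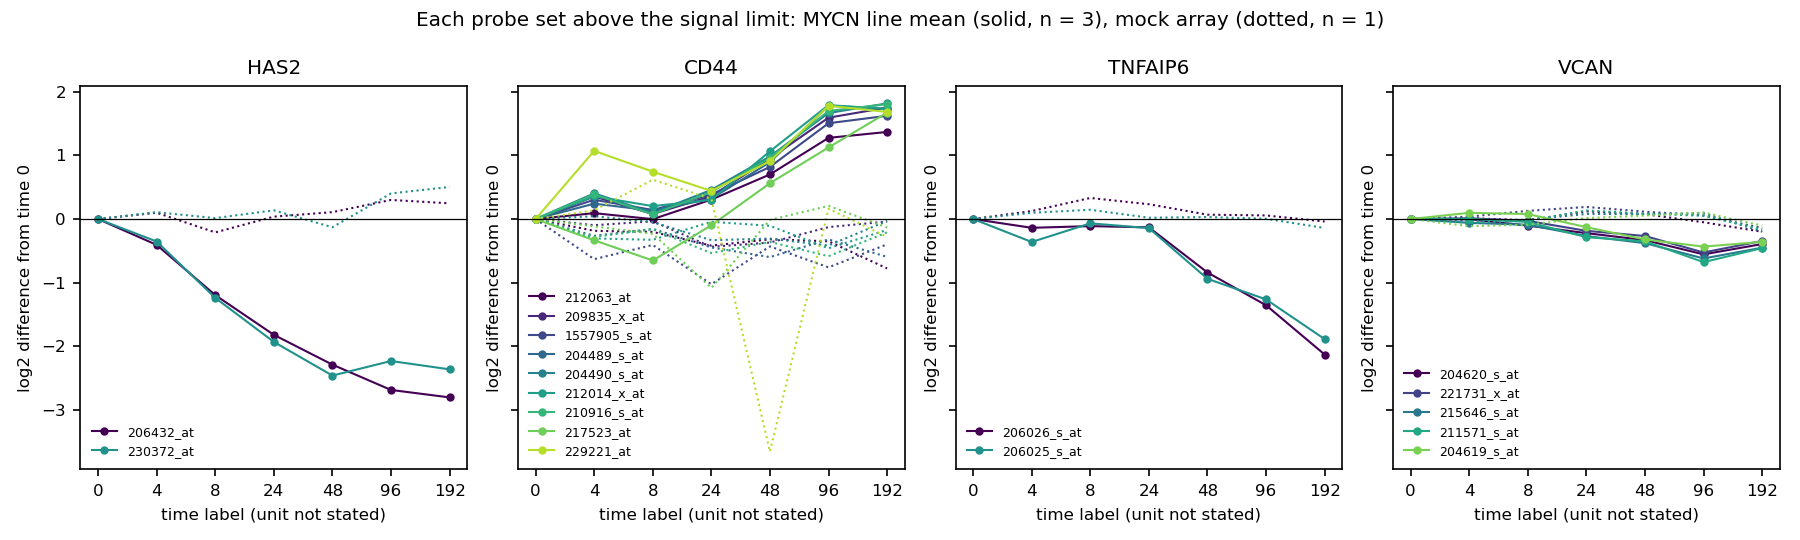
Log2 difference from time 0 (vertical axis) against the time label (horizontal axis, unit not stated) for each probe set above the signal limit, with a panel for each gene. Solid lines are means of 3 MYCN line arrays and dotted lines the single mock array. The 9 CD44 probe sets end between 1.37 and 1.82 at time 192 in the MYCN line, and the mock line of the dimmest of them has a point at -3.66 where its signal was 0.8.

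HMMR binds hyaluronan outside the cell and helps to organise the mitotic spindle inside it, and no change in it passed the test. Replicates 1, 2 and 3 began at 984.1, 1037 and 839.6, time 24 gave 1166, 1003 and 1066, time 96 gave 1142, 1253 and 1058, and time 192 gave 865.3, 911.9 and 912.8. The arrays of time 96 were all above those of time 0, by a narrow margin, and those of time 192 overlapped them. The log2 difference was 0.27 at time 96 (SE 0.13, limma adjusted p = 0.139) and -0.08 at time 192 (SE 0.13, adjusted p = 0.694), and the other HMMR probe set gave 0.44 at time 96 (adjusted p = 0.0561). Mock signals lay between 761.7 and 1134.

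The mitotic partners of HMMR showed no single course. All 12 listed genes were tested: 2 rose and none fell at time 96, and none rose and 3 fell at time 192, with list medians of 0.02 and -0.10. Of all genes tested 10.3% rose and 13.2% fell by time 96, and 11.6% and 14.1% by time 192. BUB1, a spindle checkpoint kinase (0.41, SE 0.12, limma adjusted p = 0.0232), and CCNB1, the mitotic cyclin B1 (0.36, SE 0.13, adjusted p = 0.0456), rose at time 96. KIF11, a spindle motor (-0.43, SE 0.09, adjusted p = 0.00194), ASPM, a spindle pole protein (-0.35, adjusted p = 0.0237), and TOP2A, a DNA topoisomerase (-0.21, adjusted p = 0.0265), fell at time 192. BRCA1 and BARD1, which form a ubiquitin ligase that acts on HMMR, changed over the course by the F-test (adjusted p = 0.000347 and 0.00487), with largest log2 differences of -0.53 at time 4 (adjusted p = 0.45) and -0.40 at time 8 (adjusted p = 0.123, or 0.0461 with the replicate block). KIF11 lost its call without replicate 2 (adjusted p = 0.13) and with equal array medians (0.12).

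Genes that work with CD44 also divided. Of 13 listed partners, sheddases and splicing regulators, 10 were tested, and 2 rose and 2 fell at each of times 96 and 192, with medians of 0.03 and -0.01 against -0.03 for all genes tested and -0.12 and -0.16 for the list in mock. The shares of all genes were 10.3% higher and 13.2% lower in the earlier comparison and 11.6% and 14.1% in the later. MET, the receptor of hepatocyte growth factor, for which CD44 can serve as coreceptor, went from 114.4 ± 31.8 (SD, n = 3) to 343.5 ± 212 at time 192 (log2 difference 1.44, SE 0.39, limma adjusted p = 0.00956), while mock went from 236.8 to 132.8. MMP9, a gelatinase that docks on CD44, went from 21.5 ± 3.7 to 66.6 ± 34.3 (1.53, SE 0.30, adjusted p = 0.00093) with mock signals of 40.8 and 30. SPP1, which encodes osteopontin, a CD44 ligand, fell from 141.7 ± 12.7 to 40.6 ± 16.1 at time 96 (-1.87, SE 0.42, adjusted p = 0.00304), and ADAM17, a sheddase, fell by 0.38 at time 192 (SE 0.10, adjusted p = 0.00721).

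The MET call ended without replicate 2 (adjusted p = 0.183), without the time 0 array of replicate 2 (0.0539) and without the time 192 array of replicate 1 (log2 difference 0.97, 0.0762), and with the mean of its probe sets (1.05, 0.0705). The MMP9 difference was 0.996 without replicate 3 (adjusted p = 0.0132). The SPP1 call ended without replicate 2 (0.0561), and with the mean of its probe sets its difference was -0.42 (0.721).

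TNFAIP6 encodes TSG-6, a secreted protein that crosslinks hyaluronan and is known as a gene induced by inflammatory cytokines. Replicates 1, 2 and 3 began at 113.1, 107 and 82.1, time 4 gave 98.3, 83.5 and 90.8, time 8 gave 110.4, 69.9 and 102.1, and time 24 gave 111.3, 66.6 and 102. Time 48 gave 39.3, 35.5 and 123.9, time 96 gave 36.4, 18.6 and 87.6, and time 192 gave 34.5, 22.4 and 15.3. Replicate 3 was above the other 2 by a wide margin at times 48 and 96, where the groups overlap with time 0, and all 3 arrays of time 192 lay under all of time 0.

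TNFAIP6 fell from a mean of 100.7 ± 16.4 (SD, n = 3) at time 0 to 24.1 ± 9.7 at time 192, a log2 difference of -2.13 (SE 0.46, limma adjusted p = 0.00208) that kept its call in all 19 alternative settings, between -2.43 and -1.84. At time 48 the difference was -0.84 (SE 0.46, adjusted p = 0.248), and it was -1.42 (adjusted p = 0.029) without the array of replicate 3. At time 96 it was -1.36 (SE 0.46, adjusted p = 0.0404), a call that ended in 12 of 19 settings, among them without replicate 1 (0.254), without replicate 2 (-0.77, 0.43), without any 1 of the 3 time 0 arrays and without the time 96 array of replicate 1 (0.101) or 2 (-0.82, 0.247). Replicate 3 differed from replicates 1 and 2 in the signal of a hybridisation spike control, and within replicates 1 and 2 the differences at times 48 and 96 were -1.56 (adjusted p = 0.00589) and -2.08 (0.000637). The other TNFAIP6 probe set gave -1.26 at time 96 (adjusted p = 0.0142) and -1.89 at time 192 (adjusted p = 0.000577), adjusted over all probe sets tested, of which 17.5% and 20% were called.

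In the mock line TNFAIP6 was 237.4 at time 0 and stayed between 231 and 298.6, above every MYCN line array. The difference between the lines at time 0 was -1.25 on the log2 scale (SE 0.66, limma adjusted p = 0.234, with the single mock array assumed to vary like the others). The trend per time step was lower in the MYCN line by 0.32 (SE 0.12, adjusted p = 0.0405), and it was lower by 0.28 without replicate 2 (adjusted p = 0.113) and by 0.32 without replicate 1 (0.077). Within replicate 3 and the mock line, which share a range of spike control signal, the difference in trend was -0.23 (adjusted p = 0.285).

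VCAN encodes the proteoglycan versican and fell at the late times. Replicates 1, 2 and 3 began at 3040, 2574 and 2234, time 4 gave 2869, 2651 and 2277, time 8 gave 2669, 2389 and 2208, and time 24 gave 2379, 2474 and 1871. Time 48 gave 2246, 2191 and 1783, time 96 gave 2041, 1844 and 1462, and time 192 gave 1922, 2231 and 1799. The arrays of time 96 and those of time 192 all lay under those of time 0, the highest of time 192 by a few units, and replicate 3 was the lowest of the 3 at every time.

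Each VCAN replicate at time 48 was below its own number's time 0 array, by log2 differences of -0.44, -0.23 and -0.33. The group difference was -0.33 at time 48 (SE 0.14, limma adjusted p = 0.128), -0.56 at time 96 (SE 0.14, adjusted p = 0.0077) and -0.39 at time 192 (SE 0.14, adjusted p = 0.0476). With a replicate block, or a block for the spike control range, VCAN was also called at times 24 and 48. Over all genes, replicate 2 was not paired with its time 0 array at those times. All 5 VCAN probe sets, which read the same gene, were called at time 96, with differences of -0.43 to -0.68 (17.5% of all probe sets tested were called). At time 192 the dimmest alone was called (adjusted p = 0.0457 over all probe sets, of which 20% were called). The brightest, used in the gene fit, was not called there among probe sets (0.0566). The call at time 96 ended without replicate 1 (0.0534), without replicate 2 (0.109) and with equal array medians (0.168). That at time 192 ended without replicate 1 (-0.26, 0.354) or replicate 2 (0.157) and without the time 0 array of replicate 1 or 2 or the time 192 array of replicate 1 or 3, and in 10 of 19 settings in all. Mock signals were 2182 at time 0, 1899 at time 192 and 2107 to 2373 between, and the difference in trend was -0.07 per step (SE 0.03, adjusted p = 0.167).

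Other binding proteins were mostly dim. Of 20 listed receptors and binding proteins 7 were tested, and at time 192 none rose and 1 fell (11.6% and 14.1% of all genes did), the median being -0.31 against 0.58 in the mock line. PTX3, a pentraxin that joins with TNFAIP6 and heavy chains to hold the hyaluronan matrix together, fell from 4689 ± 886 (SD, n = 3) to 1654 ± 135 (log2 difference -1.49, SE 0.22, limma adjusted p = 6.42e-05), and its mock signals were 4268 at the start, 2871 to 3133 from time 24 to 96 and 3751 at the end. TLR2, an innate receptor that can sense hyaluronan fragments, rose at time 48 alone (0.54, SE 0.18, adjusted p = 0.0469), a call that ended without any 1 replicate (0.104 to 0.332). LAYN, a hyaluronan receptor, had a difference of -0.45 at time 192 (adjusted p = 0.0894, or 0.0131 with the replicate block), which turned to 0.26 with the mean of its probe sets.

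Of 11 listed partners and proteases of versican, 8 were tested, and at time 192 1 rose and 3 fell (11.6% and 14.1% of all genes did), with a median of -0.30 against 0.08 in the mock line. ADAMTS1, which cleaves versican, rose from 17.3 ± 8.3 (SD, n = 3) at time 0 to 37.4 ± 3.8 at time 24 and 48.4 ± 10.8 at time 192 (log2 difference 1.57, SE 0.30, limma adjusted p = 0.000662), and mock signals were 3.9 to 18.7 at times 0, 24, 96 and 192. ADAMTS15, a further versican-cleaving protease, fell by 1.39 (SE 0.36, adjusted p = 0.00773) to a mean of 11.3, below the signal limit. CHPF, which extends the chondroitin chains that versican carries, fell from 108.1 ± 14.4 to 56.8 ± 12.3 (-0.95, SE 0.23, adjusted p = 0.00537), and FBLN1, fibulin-1, fell by 0.53 (SE 0.16, adjusted p = 0.0203). With the mean of its probe sets the ADAMTS1 call ended (1.13, adjusted p = 0.0825). Without replicate 1 those of ADAMTS15 (0.0637) and CHPF (0.0532) did, as did that of ADAMTS15 without replicate 2 (0.0672).

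**Figure D3:**
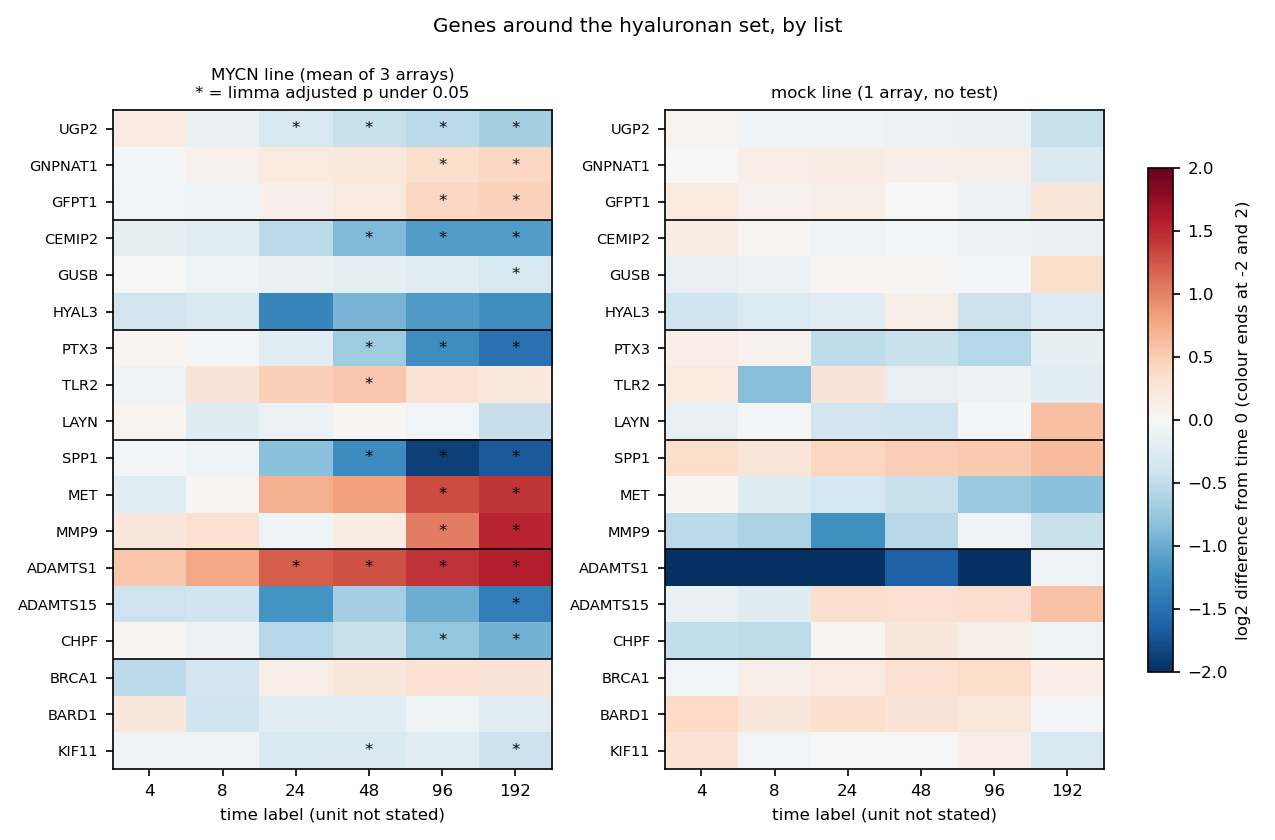
Colour map of the log2 difference from time 0 for selected genes of the 6 lists (rows, grouped by list). Columns are the later time labels (unit not stated), for the MYCN line and the mock line. The genes were picked in each list by F-test call and fold change or by smallest F-test p. Other tested genes of the lists are not drawn, so the map does not stand for whole lists. Red is higher and blue lower than time 0, and colours end at -2 and 2. PTX3, SPP1 and CEMIP2 are blue and MET, MMP9 and ADAMTS1 red in the MYCN line at time 192.

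Apart from HAS2 and CD44, 5 genes were counted. They too were listed with earlier results of these data known, so their choice may not be free of their values. By limma without a block none was called at time 4, 8, 24 or 48, where 0, 1, 0 and 2 had an unadjusted p under 0.05. With a replicate block, or a block for the spike control range, VCAN was called at times 24 and 48. At time 96 and again at time 192, 3 of 5 were called. All 3, HYAL2, TNFAIP6 and VCAN, were lower, while 13.2% of all genes tested were called lower at time 96 and 14.1% at time 192. For HYAL2 the single mock array was lower as well. Its log2 difference was -0.39 at time 96 and -0.21 at time 192, against -0.37 and -0.42 in the MYCN line. The median log2 difference of the 5 genes was -0.37 at time 96 and -0.42 at time 192, against -0.03 for all genes tested, and -0.05 and -0.21 for the same genes in the mock line. The F-test called 2 of 5 (TNFAIP6 and VCAN, 25.4% of all genes), and the difference in trend between the lines called TNFAIP6 alone (24% of all genes). At time 0 limma called none of the 5 between the lines (14.8% of all genes were called), and none had an unadjusted p under 0.05, but with 1 mock array this does not show that the lines began alike. Across the 6 lists the F-test called 17 of 46 genes tested. With array medians made equal, the member calls at times 96 and 192 were 1 each, TNFAIP6.

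**Figure D4:**
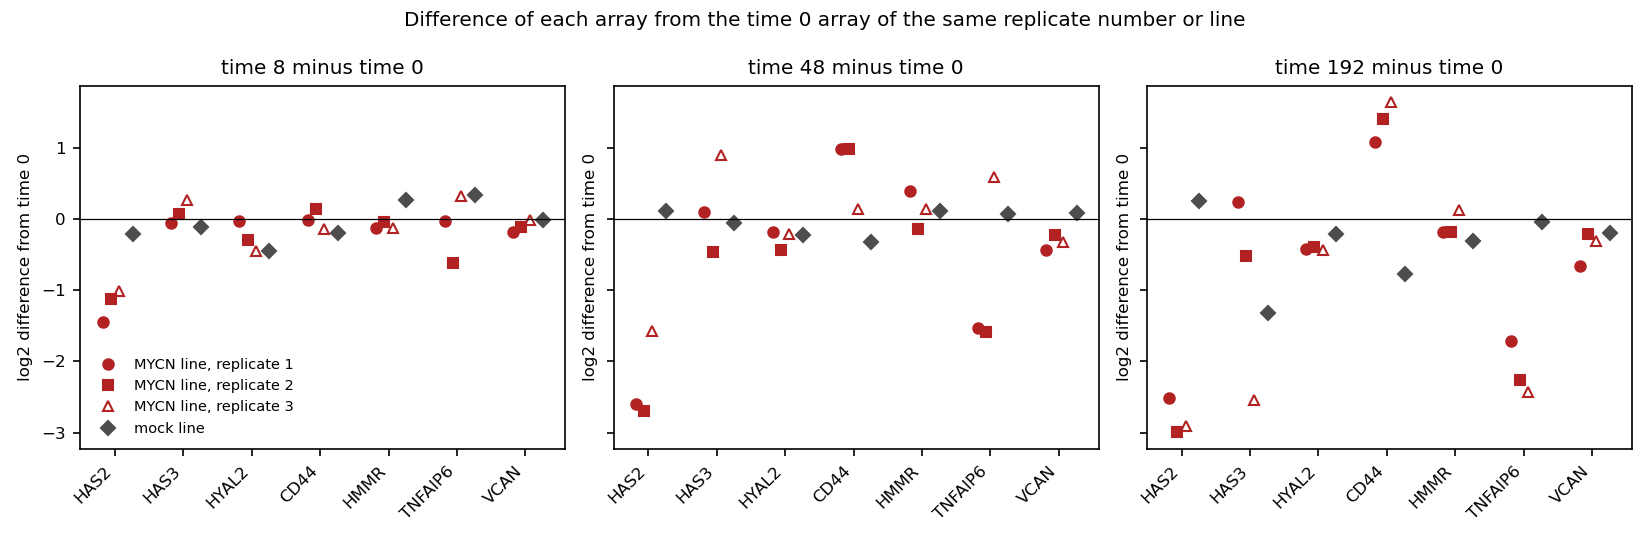
Log2 difference of each array from the time 0 array of the same replicate number or line (vertical axis) for the 7 hyaluronan genes (horizontal axis), with a panel for each time shown. Red symbols are the 3 MYCN line replicates and grey diamonds the single mock array. Each gene is shown by its brightest probe set. At time 192 HAS2 and TNFAIP6 are below 0 and CD44 above it in all 3 replicates, with mock at 0.25 for HAS2 and -0.78 for CD44.

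The summed linear signal of the listed fibroblast markers was lower at the late times in the MYCN line, and so was that of the mesenchymal neuroblastoma markers. Such sums weigh the brightest genes most: in mock at time 0 VIM made up 5253 of 9217 and COL3A1 7466 of 14480. They do not show the direction of each marker. The summed signal of the 6 fibroblast markers in MYCN line arrays began at 14060 to 17850, time 48 gave 7147 to 14210, time 96 gave 5364 to 8149 and time 192 gave 5284 to 7087. Over all times mock had 14480 to 17150. The mesenchymal sum was 10280 to 11730 at time 0 and 7980 to 8710 at time 192, with 9217 and 8513 in mock. The noradrenergic sum at time 0 was 475.2 to 512 with the transgene and 2115 in mock. PTPRC was the one leukocyte marker above the limit at that time, with a leukocyte sum of 17.9 to 40.1 in MYCN line arrays and 275.5 in mock. Of the endothelial markers PECAM1 passed in both lines and KDR in mock. Their part in the results for HAS2, CD44, TNFAIP6 and VCAN was not tested, and in whole cultures fewer cells of a type and less RNA per cell cannot be told apart.

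As a description, the genes whose log2 signal was most like that of HAS2 over the 21 MYCN line arrays were SAMD9L (Pearson r = 0.959), CMPK2 (r = 0.952) and LRBA (r = 0.949), all lower with time. SAMD9L went from 151 ± 3.9 (SD, n = 3) at time 0 to 67.5 ± 1.7 at time 192, with mock signals of 157.9 and 189.7. For CD44 they were DUSP4 (r = 0.967), a MAP kinase phosphatase, ERRFI1 (r = 0.955), a feedback inhibitor of the EGF receptor, and PAN3 (r = 0.951), all higher with time. DUSP4 went from a mean of 134.5 to 447.4, and its mock signal went from 342.6 to 204.6. These arrays share times and batches, so the likeness is no test.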

How the data were processed

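Gene expression was measured on whole-genome Affymetrix arrays, 21 of the MYCN line and 7 of the mock line. The authors deposited linear intensity values made with MAS5 and GCOS, per the submitters' processing notes, with no version given, and the 2% trimmed mean of every array was 100.01. Here log2 was taken after setting 91 values at or under 0 to 0.1. Each gene was represented by its brightest probe set with 1 gene symbol (41091 probe sets had 1, 1801 several and 11777 none), with symbols updated through RefSeq for 41037. Genes under the 40th percentile of mean log2 signal were left out. All fits were run over the 11865 genes left with limma 3.58.1 in R 4.3.3 (eBayes with trend, Benjamini-Hochberg, threshold 0.05): each time against time 0 and an F-test in the MYCN line (14 residual df), a linear trend over time steps 0 to 6 in the mock line (5 df), the difference in trend (24 df), and time 0 between lines (14 df). Probe sets were fitted likewise. Intensity precision is limited by the number of arrays.

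Members and gene lists were chosen with earlier results of these data known. Named genes were the members, MYCN, the markers, of each list the F-test calls of at least 2-fold and the 3 of smallest F-test p, and 3 genes most correlated with HAS2 and with CD44. UAP1, ADAM17, MSN, FBLN1, FBLN2, PLK1, BUB1, CCNB1, ASPM and TOP2A were named after their values were seen, to complete counts. Spike control signal fell into 2 ranges, taken as batches: 1544 to 1941 for MYCN replicates 1 and 2, and 2322 to 2770 for replicate 3 and mock. Replicate numbers paired the arrays at times 4, 8 and 192, where the deviations from group means of every number correlated over 0.1 with those of time 0 (0.129 to 0.367), but not for replicate 2 at times 24, 48 and 96 (-0.0608, 0.0549 and -0.0248). Alternatives covered normalization, filter, probe set choice, floor, eBayes trend, replicate and batch blocks, within-batch fits and left-out arrays.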

Additional observations from a re-analysis of the deposited data

Results flagged for a closer look

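The following results stood out because limma's test of the difference in trend called them (log2 per time step, MYCN minus mock, adjusted over all genes tested). It sets 21 MYCN line arrays against 1 mock series of 7 arrays. Mock shares a spike control range with replicate 3 but not with replicates 1 and 2. Among the hyaluronan genes TNFAIP6 was called at -0.32, a call that ended in 7 alternative settings and held in 4. For the surrounding genes this test was not repeated in other settings. Of the 46 surrounding genes tested, 17 were called, 8 with a higher and 9 with a lower trend in the MYCN line than in mock (24% of all genes were called). The values were 0.10 for GNPNAT1 and 0.098 for UAP1 in precursor synthesis, -0.18 for CEMIP2 and -0.10 for GUSB in breakdown, and -0.19 for PTX3 among binding proteins. Among CD44 partners they were -0.44 for SPP1, 0.44 for MET, 0.062 for MSN and -0.10 for ADAM17. Among versican partners they were -0.32 for ADAMTS15, -0.20 for FBLN1, 0.45 for FBLN2 and -0.23 for CHPF, and among mitotic partners of HMMR 0.16 for PLK1, 0.11 for CCNB1, 0.11 for BUB1 and -0.059 for TOP2A. A positive value need not be a rise in the MYCN line. FBLN2 was called there at no time against time 0, and its mock signal went from 54.5 at time 0 to 5.7 at time 192. The latter is below the signal limit of 12.8.

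HAS2 and CD44 are listed because all MYCN line arrays of time 192 moved one way and the single mock array the other. On the brightest probe sets the mock log2 differences were 0.25 for HAS2 and -0.78 for CD44. The other CD44 probe sets above the signal limit gave smaller mock differences, from -0.60 to -0.03. The difference between the lines was not tested for them, since their courses chose the set.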

How the results depend on the processing

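Over the processing alternatives, single-gene values were counted as unchanged in 696 cases, lost the call in 100, gained it in 17 and reversed in 5. Unchanged means the same direction and side of the threshold. HAS2 and CD44 had no test in the MYCN line, and there it means a shift smaller than the SD within groups. Both kept their direction at times 48 and 192 in all alternatives. Of the 5 tested members, the count called at time 96 (3) was 1 with equal array medians, 0 without _s_at and _x_at probe sets, 1 with only the arrays of the 2 times, and 0 to 2 when an array or replicate was left out. At time 192 (3) it was 1, 0 and, with left-out arrays, 1 to 3. By the F-test (2) it was 1 with equal medians, 0 without _s_at and _x_at probe sets, 1 without the eBayes trend and 0 to 2 with left-out arrays. HYAL2, TNFAIP6 and VCAN have only such probe sets, so that setting removes them. The replicate block gave 1 at time 24 and 1 at time 48 (otherwise 0), VCAN with adjusted p = 0.0391 and 0.00213, as did the batch block (0.0486 and 0.00275), and 3 by the F-test. It moved VCAN's difference in trend to an adjusted p of 0.0268 and no other member's call at a single time. Within replicates 1 and 2 the count at time 48 was 2, and with left-out arrays 0 to 2.

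The mock trend count (1) was 0 with quantile normalization, no filter, the mean of probe sets, a floor of 10 and no eBayes trend, and 0 to 1 with left-out arrays. The difference in trend (1) was 0 with quantile normalization, equal medians, no filter, without _s_at and _x_at probe sets, without the eBayes trend and within the shared batch, 2 with the replicate block, and 0 to 2 without a replicate. The list count by F-test (17) was 8 with equal medians, 10 with the mean of probe sets, 11 without _s_at and _x_at probe sets and 3 to 19 with left-out arrays. Member probe sets called at any time (8) were all those tested of HYAL2 (1), TNFAIP6 (2) and VCAN (5). None of HAS3 (1 tested) or HMMR (2) was called, and the count was 2 to 7 without a replicate. Of all probe sets tested 17.5% were called at time 96 and 20% at time 192. Reversed values were HAS3 at time 96 (-0.40) and LAYN at time 192 (0.26) with the mean of probe sets, HAS3 at time 192 without the array of replicate 3 (0.030, with -1.53 without replicate 1), and TNFAIP6 at time 24 without replicate 2 (0.15, with -0.35 without replicate 3) or its array of that time (0.095). Over all genes, calls at time 192 (3056) ranged from 1327 without replicate 2 to 4159 with the replicate block, at time 96 (2779) from 787 to 3922, at time 48 (1745) from 241 to 2840, at time 24 (852) from 164 to 1773, at time 8 (91) from 2 to 280 and at time 4 (1) from 0 to 12. Low signal limits HAS3, HYAL3, MMP9 and ADAMTS1, whose signals lay near the limit of 12.8 on some arrays.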
